A study of Mus musculus with 6 samples.

Results

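The wild-type tailbud transcriptome of the mouse embryo at embryonic day (E) 9.5 was described from 3 RNA-seq libraries, WT replicates 1, 2 and 3. A gene was included when it had at least 10 counts in each of the 3 libraries, and 14626 of the 37310 gene identifiers in the count tables met this rule (39.2%). The embryos were WT/WT on the outbred CD-1 background in which the Danforth short tail (Sd) allele was kept. Tailbuds were cut just ahead of the last somite and frozen, and polyA RNA went into a stranded mRNA library. Material of 2 embryos was pooled where a single tailbud gave too little RNA. The labels do not say which libraries were pooled, whether they came from separate litters or how many somites each embryo had, so the spread between libraries may be partly technical. The series also holds 3 Sd/Sd libraries, which are not analysed here.

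The tailbud is the growth zone at the posterior end of the embryo, where bipotent neuromesodermal progenitors supply both the spinal cord and the paraxial mesoderm. Wnt3a and FGF signals keep the progenitors and the freshly formed presomitic mesoderm immature, while retinoic acid made by the somites promotes differentiation. In the presomitic mesoderm a segmentation clock of oscillating Notch, FGF and Wnt targets sets the rhythm of somite formation. Notochord, hindgut, neural tube, vessels and blood pass through or end in the same tissue, so a tailbud library holds RNA of all of them. In bulk RNA of this kind, fewer cells of a type and less RNA per cell cannot be told apart.

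The 3 libraries held 51936499, 52767718 and 42352598 counts, and 99.9% of them in each library fell in the included genes. Levels are given as CPM, counts scaled by library size with TMM factors, always in the order of replicates 1, 2 and 3, and comparisons between genes use CPM per kilobase of exon (CPM per kb). The minimum of 10 counts corresponded to 0.190 to 0.238 CPM. At the edge of the rule, 147 included genes had a lowest count of exactly 10 (median 0.308 CPM), and 155 identifiers had a lowest count of 9 (median 0.279 CPM). All 2269 identifiers on the X chromosome, 14 on Y and 37 on the mitochondrial genome were listed at 0 in every library, so that Cdx4, Sox3, Gata1, Alas2 and Pgk1 have no value here.

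The median gene stood at 23.6 CPM, with quartiles of 3.80 and 72.2 CPM. Translation and growth genes led the tissue. Eef1a1, which encodes an elongation factor of protein synthesis, was the most abundant per length at 3590 CPM per kb and had 9023, 8952 and 8877 CPM in the 3 libraries. H19, an imprinted noncoding RNA, reached 2588 CPM per kb, after Eef1a1 and the embryonic globins Hbb-y and Hbb-bh1. Its partner Igf2, the imprinted fetal growth factor, reached 3476, 4106 and 4024 CPM. The 81 identifiers of cytosolic ribosomal protein genes, 74 of them included, together made up 4.86% of the scaled counts. Their summed level was 48433, 48549 and 48735 CPM, a highest-to-lowest ratio of 1.01. No olfactory receptor gene (of 858) and no vomeronasal receptor gene (of 188) was included.

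All 6 genes taken as marks of the tailbud were included, and all 6 had their highest level in replicate 3. T (Brachyury), the T-box factor of the primitive streak, tailbud and notochord, had 145, 153 and 185 CPM, a mean of 161 ± 20.9 CPM (SD, n = 3). Cdx2, a caudal homeobox factor needed for axis elongation, had 104, 128 and 168 CPM (133 ± 32.0, SD, n = 3). Replicate 1 was thus the lowest for both genes, and the libraries stood 1.27-fold apart for T and 1.61-fold for Cdx2. Hes7, the oscillating repressor at the core of the segmentation clock, had 31.6, 42.3 and 45.7 CPM (39.9 ± 7.37, SD, n = 3). Wnt3a, the ligand that maintains the progenitors, had 21.2, 22.3 and 26.9 CPM (23.5 ± 3.06, SD, n = 3). The other pair, which marks the notochord and its surroundings, was lower per kb. Noto, a homeobox factor of the node and posterior notochord, had 8.11, 8.55 and 11.2 CPM (9.28 ± 1.65, SD, n = 3). Shh, the ligand made by notochord, floor plate and hindgut, had 15.7, 13.5 and 16.5 CPM (15.2 ± 1.57, SD, n = 3). Per kb of exon the order was T (69.5), Cdx2 (58.9), Hes7 (22.0), Wnt3a (8.50), Noto (5.79) and Shh (5.34). The last pair overlapped in their library values per kb.

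**Figure D1:**
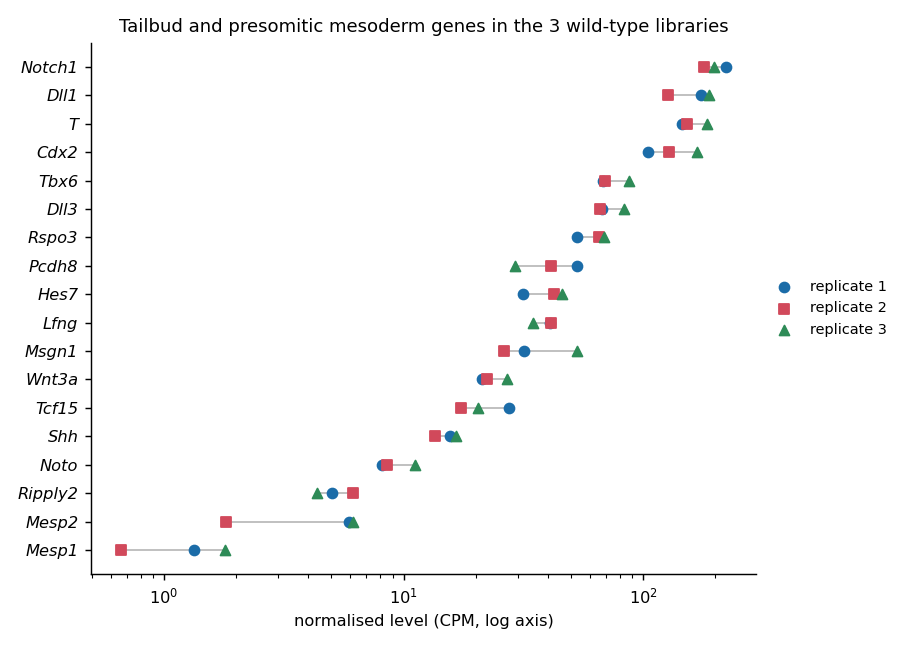
Normalised level (CPM, log axis) of the 6 tailbud marks and of the presomitic mesoderm genes, with 1 point for each of the 3 wild-type libraries and a line from the lowest to the highest. T lies between 145 and 185 CPM and Cdx2 between 104 and 168 CPM; Mesp2 and Mesp1 are lowest in replicate 2.

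Genes of tissues that a tailbud should not hold were mostly low or below the minimum. The 7 lists covered macrophages, yolk sac endoderm, trophoblast, forebrain to hindbrain, heart, skeletal muscle and foregut organs, with 65 listed identifiers. Of these, 41 were below the minimum, and 3 of the 24 included ones reached 10 CPM. Of all 37310 identifiers 39.2% were included, a share close to 24 of 65, so this count alone does not set the lists apart. The 24 had a median of 1.08 CPM, against 23.6 CPM for all included genes. Otx2, the forebrain and midbrain homeobox factor, had 6, 0 and 6 counts. Nkx2-5, the cardiac homeobox factor, had 3 counts in each library. Myod1 of skeletal muscle had 3, 0 and 1 counts, Myog had none, and Ptprc, the pan-leukocyte CD45 gene, had 4, 2 and 0. Among those with a mean of 10 CPM or more were Actc1 (49.1, 53.4 and 36.5 CPM) and Tnni1 (9.56, 14.3 and 8.65 CPM). They encode cardiac actin and slow troponin I, and neither is restricted to the tissue of its list.

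Spread between libraries was described in 3 ways. A chi-square test of the 3 counts of a gene against a common level called 9249 of the 14626 genes (63.2%) as spread beyond counting noise at an adjusted p under 0.05. That test compares these libraries, not conditions. A simpler measure, the highest CPM at least 1.5 times the lowest, held for 2614 genes (17.9%) and is called "1.5-fold apart" in what follows. Among genes with a mean of 5 CPM or more it held for 507 of 10558 (4.80%). Over all included genes, the highest value was in replicate 1 for 33.5%, in replicate 2 for 33.6% and in replicate 3 for 32.9%, and the lowest was in replicate 1 for 32.7%, in replicate 2 for 33.4% and in replicate 3 for 33.9%. The highest library was replicate 1, 2 or 3 and the gene was also 1.5-fold apart for 5.83%, 6.84% and 5.2% of genes. Counts of list members are to be read against these shares. The median coefficient of variation (CV) over all genes was 7.79%, falling from 26.8% below 1 CPM to 4.12% between 100 and 1000 CPM. A CV percentile ranks a gene's CV among genes of similar mean level, from low to high.

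**Figure D2:**
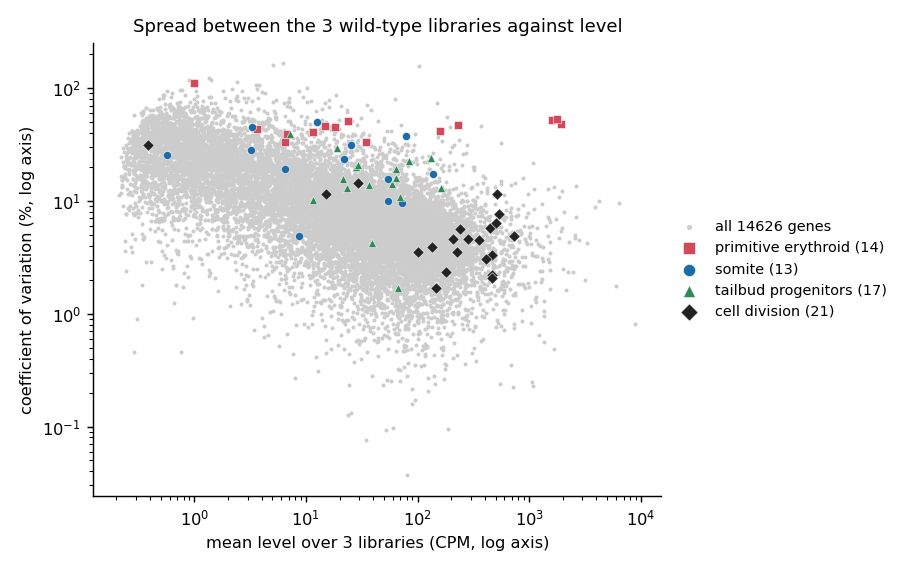
Coefficient of variation over the 3 wild-type libraries (%, log axis) against mean level (CPM, log axis) for all 14626 genes in grey, with 4 gene lists in colour. The 14 erythroid genes lie above most genes of their level, with a median CV of 45.6%, and the 21 cell division genes have a median CV of 4.56%, slightly above the middle for genes of their level (median CV percentile 60.5).

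Genes of the progenitor zone were mostly above the typical level per kb and mostly highest in replicate 3. Of 18 listed genes, 17 were included (Cdx4 lies on X), 16 of them above the median level per kb of all genes. Of the 17, 14 were highest in replicate 3, against 32.9% of all genes. Their summed level was 819, 864 and 1064 CPM, and 5 of the 17 were 1.5-fold apart (29.4%, against 17.9% of all genes). After T and Cdx2, Cyp26a1 was the most abundant per kb. This enzyme clears retinoic acid from the tailbud and had 61.9, 70.0 and 77.0 CPM. Nkx1-2, a homeobox gene of the neuromesodermal progenitors, had 69.0, 75.7 and 104 CPM, and Evx1 had 55.2, 61.6 and 75.2 CPM. Sox2, which marks the neural side of the progenitor state, did not share the pattern, with 40.7, 37.4 and 39.0 CPM. The genes with their highest level in replicate 1 were Sox2, Hes3 and Cdx1.

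Presomitic mesoderm genes followed in part. All 13 genes with a value were included, 8 were highest in replicate 3, and 7 were lowest in replicate 2, against 33.4% of all genes. Msgn1, a bHLH factor that drives progenitors into mesoderm, had 31.7, 26.3 and 53.0 CPM, a 2.02-fold range. Tbx6, which suppresses neural fate in the same cells, had 67.7, 69.2 and 87.0 CPM, and the Notch ligand Dll1 had 175, 127 and 188 CPM. At the anterior border of this tissue, Mesp2, which positions the next somite boundary, had 5.93, 1.82 and 6.18 CPM, so that replicate 2 stood apart from the other two. Mesp1 had the same order, with 1.34, 0.664 and 1.81 CPM, whereas Ripply2, a repressor that ends Mesp2 activity, was highest in replicate 2 with 5.03, 6.14 and 4.35 CPM. Expression of Mesp2 comes and goes with each somite. The labels record no clock phase of the embryos, and its part in these values was not tested.

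Clock genes were included without exception. The 16 Notch and FGF targets ranged from 5.32 CPM (Hes5) to 296 CPM (Ptpn11), and 2 of them, Hes5 and Egr1, were 1.5-fold apart. Id1, an inhibitor of bHLH factors, had 85.6, 87.6 and 92.6 CPM and was the highest of them per kb (76.4). Dusp6, a phosphatase induced by FGF that dampens ERK, had 172, 154 and 161 CPM, and Dusp4 had 111, 134 and 148 CPM. Within the Notch branch, Nrarp had 102, 126 and 132 CPM, with replicate 1 lowest as for Hes7, but Lfng, the glycosyltransferase that modulates Notch, had 40.8, 41.2 and 34.7 CPM with replicate 3 lowest. The Wnt branch had 11 genes between 18.9 CPM (Sp5) and 338 CPM (Hspg2), and 9 of the 11 were lowest in replicate 2, against 33.4% of all genes. Axin2, a negative feedback component of the pathway, had 132, 91.3 and 142 CPM. Dkk1, a secreted Wnt inhibitor, had 15.6, 13.7 and 40.7 CPM, a 2.96-fold range and the widest of the branch. Sp5, a zinc finger target of Wnt, had 18.6, 13.5 and 24.6 CPM. Axin2, Dkk1 and Sp5 were the 3 genes of the branch that were 1.5-fold apart (27.3%), and Nkd1, another feedback inhibitor, differed little (100.3, 105 and 103 CPM).

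The DNA just upstream of 3 of these genes is shown because all were lowest in replicate 2 and highest in replicate 3 and because Wnt signals act through TCF/LEF factors, for which CTTTGA is a common core. Both the genes and the motif were chosen with their values known. The 250 bases before each RefSeq start site are given in GRCm38.p6, 5′ to 3′ on the gene's strand: Msgn1 at chr12:11208949-11209198 (minus strand), Sp5 at chr2:70474673-70474922 (plus strand) and Dkk1 at chr19:30549497-30549746 (minus strand). Capitals mark CTTTGA on either strand (TCAAAG on the other).
Msgn1: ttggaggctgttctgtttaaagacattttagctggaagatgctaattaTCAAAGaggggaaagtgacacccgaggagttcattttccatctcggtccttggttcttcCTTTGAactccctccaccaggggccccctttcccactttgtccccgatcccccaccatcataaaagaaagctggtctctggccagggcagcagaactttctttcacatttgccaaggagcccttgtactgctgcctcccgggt
Sp5: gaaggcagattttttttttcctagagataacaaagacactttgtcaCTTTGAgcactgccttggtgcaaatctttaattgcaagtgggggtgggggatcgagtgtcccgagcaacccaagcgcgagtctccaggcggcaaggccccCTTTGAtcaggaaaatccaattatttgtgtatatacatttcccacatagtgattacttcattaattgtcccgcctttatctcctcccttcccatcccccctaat
Dkk1: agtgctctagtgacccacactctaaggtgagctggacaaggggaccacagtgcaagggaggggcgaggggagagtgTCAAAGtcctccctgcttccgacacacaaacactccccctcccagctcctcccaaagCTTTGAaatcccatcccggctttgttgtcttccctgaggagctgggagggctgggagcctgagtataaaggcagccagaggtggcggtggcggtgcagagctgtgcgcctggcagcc
Each window held 2 matches. At least 1 match was found in 13.8% of the 32817 upstream windows of this length in the RefSeq table, and at least 2 in 1.36%. Over whole lists, a match was present for 3 of the 8 Wnt-branch clock genes with an entry (Dkk1, Sp5 and Tnfrsf19), for 4 of 12 progenitor genes (Sp5, Sp8, T and Wnt5b) and for 2 of 11 presomitic genes (Mesp1 and Msgn1). A gene counted here when any of its windows matched, so these counts are not like the shares of windows. Among the other genes of these lists with the same order of libraries and an entry, Mesp1 and Sp8 had a match. Axin2, Dact1, Hspg2, Dll1, Dll3 and Mesp2 had none. A match is a description of the sequence, not a binding site.

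Ligands of the main pathways differed widely in level. All 19 Wnt genes were included. Wnt5a, which drives convergent movements of the elongating axis, led at 35.5 CPM per kb with 250, 278 and 306 CPM, and Wnt5b followed at 23.9 CPM per kb with 52.8, 60.6 and 76.8 CPM. Wnt6, a ligand of surface ectoderm, came next at 15.2 CPM per kb with 30.2, 36.7 and 32.8 CPM. Wnt3a, at 8.50 CPM per kb, came after Wnt2 (11.4 CPM per kb). Of the 19, 9 were 1.5-fold apart (47.4%, against 17.9% of all genes), among them Wnt1 of the dorsal neural tube with 2.74, 1.00 and 0.499 CPM. Only 7 of the 19 reached 10 CPM, and 33.4% of all genes at 1 to 10 CPM were 1.5-fold apart. On the receiving side all 25 genes were included. Ctnnb1, which encodes beta-catenin, had 1291, 1231 and 1256 CPM, and the nuclear partners Lef1 and Tcf7 had 225, 233 and 278 CPM and 112, 116 and 115 CPM.

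Of 12 FGF ligand genes, 11 were included. Fgf17 and Fgf8, the posterior FGFs, led at 34.6 and 21.0 CPM per kb, followed by Fgf18 at 12.8. Fgf8 had 25.2, 25 and 34.9 CPM, and Fgf17 had 52.2, 55.5 and 67.8 CPM, both highest in replicate 3. Fgf4, which acts with Fgf8 in the presomitic mesoderm, was low at 0.555, 1.00 and 1.16 CPM. Receptor Fgfr1 had 270, 241 and 246 CPM, and the FGF-induced factors Etv5 and Etv4 had 120, 122 and 142 CPM and 76.2, 70.8 and 80.8 CPM. Of the 13 receptor and feedback genes, Fgfr4 alone was 1.5-fold apart (7.69%, against 4.80% of genes of 5 CPM or more). All 13 were spread beyond counting noise, and their median CV percentile was 78.1, so that they varied more than most genes of their level.

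In the Notch pathway all 14 genes were included and 10 were lowest in replicate 2, against 33.4% of all genes. The differences were small in fold, since 1 of the 14 was 1.5-fold apart (7.14%). That gene was Mfng, which was lowest in replicate 3. Dll1 led per kb (38.7), then Notch3 (30.4; 259, 222 and 256 CPM) and Dll3 (25.3; 67.2, 66.0 and 83.0 CPM). Dll3 encodes a divergent ligand that acts in the presomitic mesoderm. Hedgehog components were included for all 15 identifiers. Smo, the signal transducer, had 332, 304 and 323 CPM, and Ptch1, the receptor and a target of the pathway, had 258, 251 and 249 CPM. Gas1, a co-receptor, had 138, 110 and 104 CPM. Gli1, the most direct target, had 114, 80.0 and 77.3 CPM. Replicate 1 was highest for Gli1, whereas replicate 3 was highest for Shh. Of the 15 genes, 11 were highest in replicate 1, against 33.5% of all genes. The differences were small in fold, since 1 of the 15 was 1.5-fold apart (6.67%). That gene was Dhh, which was highest in replicate 2. The ligands Ihh (2.60 to 3.30 CPM) and Dhh (0.650 to 1.18 CPM) stood at 0.988 and 0.210 CPM per kb, below Shh at 5.34.

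Retinoic acid genes spanned both sides of the gradient. The binding proteins Crabp2 (149 CPM per kb; 214, 186 and 189 CPM) and Crabp1 (130 CPM per kb; 116, 99.8 and 97.5 CPM) led, followed by the receptor Rarg at 38.3 CPM per kb with 150, 166 and 173 CPM. Aldh1a2, the synthesizing enzyme of the somites, had 114, 61.1 and 63.0 CPM, a 1.86-fold range with replicate 1 highest. Cyp26a1, the degrading enzyme of the progenitors, had replicate 1 lowest and a 1.24-fold range. For the BMP pathway all 18 genes were included and 2 were 1.5-fold apart (11.1%). Id1 and Id3, its common targets, stood at 76.4 and 70.6 CPM per kb, and Bmp4 at 43.6 CPM per kb with 89.5, 101 and 104 CPM. Id3 had 136, 120 and 124 CPM. Nodal, the ligand of the earlier node, had 0.230, 0.303 and 0.570 CPM.

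The Hox genes, 4 clusters of homeobox genes that give positional identity along the axis, were nearly all included. On chromosomes 6, 11, 15 and 2 (the A, B, C and D clusters), 36 of the 38 identifiers met the minimum. The exceptions were Hoxb13 with 1, 0 and 2 counts and Hoxc12 with 132, 26 and 3 counts. Hoxc10 was the most abundant per kb at 107, with 190, 204 and 219 CPM, followed by Hoxb9 (62.1; 147, 130 and 203 CPM) and Hoxa6 (56.7; 50.6, 49.7 and 48.5 CPM). In the D cluster Hoxd10 led at 31.7 CPM per kb with 62.7, 60.8 and 49.3 CPM. The least abundant per kb was Hoxc13 at 0.561.

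Position in the cluster went with the order of the libraries. Of the 26 genes of paralog groups 1 to 9, 23 were highest in replicate 3, and 24 were higher there than in replicate 1, with a median log2 ratio of replicate 3 to replicate 1 of 0.33. Over all included genes that ratio had a median of 0.00, and 49.3% were higher in replicate 3. The 3 genes of group 10 lay between -0.35 (Hoxd10) and 0.20 (Hoxc10). All 7 included genes of groups 11 to 13 were lowest in replicate 3, against 33.9% of all genes, with a median log2 ratio of -0.70, and 6 of the 7 stood in the order replicate 1, then 2, then 3. Hoxd12 had 17.8, 5.99 and 2.11 CPM, an 8.41-fold range. Hoxd11 had 72.9, 68.3 and 45.0 CPM, Hoxd13 had 57, 48.1 and 37.7 CPM, and Hoxc11 had 32.6, 22.0 and 16.6 CPM. These genes sit at the end of their clusters that is switched on last during axis growth. Hoxa13, highest in replicate 2, had 17.7, 19.8 and 14.8 CPM. In the opposite direction, Hoxc8 had 50.4, 62.0 and 85.6 CPM and Hoxb9 was 1.56-fold apart. The grouping by paralog number was chosen after these values were seen, so the counts are a description of the 3 libraries.

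**Figure D3:**
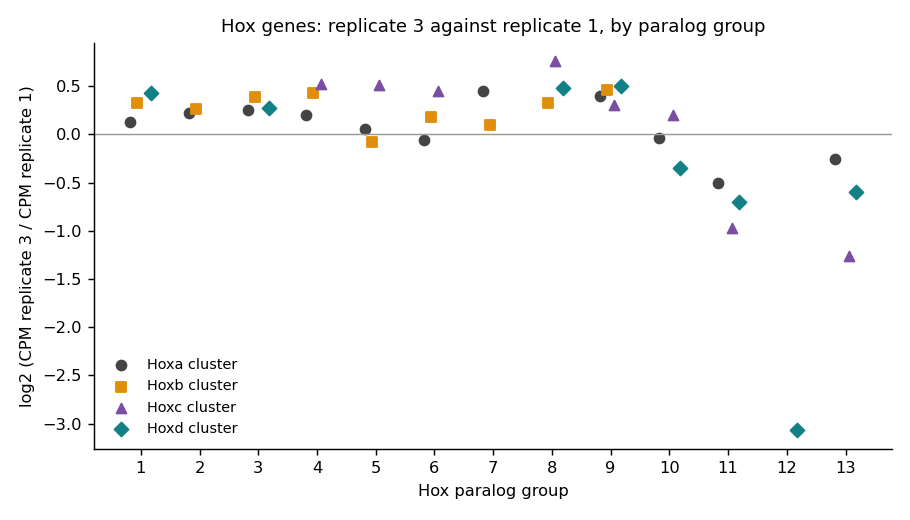
Log2 ratio of the CPM of replicate 3 to that of replicate 1 (vertical axis) for the 36 included Hox genes by paralog group (horizontal axis), coloured by cluster, with 0 as no difference. Most genes of groups 1 to 9 lie above 0 and all 7 of groups 11 to 13 lie below, down to -3.07 for Hoxd12.

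Somite genes were highest in replicate 1, where most progenitor genes were lowest. All 13 included members were highest in replicate 1, against 33.5% of all genes, 7 of the 13 were 1.5-fold apart, and 9 were lowest in replicate 2. The summed level of all 16 listed identifiers, those below the minimum among them, was 594, 420 and 438 CPM. Meox1, a homeobox factor of the early somite, led per kb (62.2) with 166, 122 and 128 CPM. Tcf15 (Paraxis), which makes the somite epithelium, had 27.4, 17.4 and 20.5 CPM. Uncx, a mark of the posterior somite portion, had 18.1, 5.65 and 14.2 CPM, so that replicate 2 was lowest by a wide margin. Pax1, a factor of the ventral somite (sclerotome), had 186, 0 and 122 counts and was not included for that reason. Against a floor of 3 counts (0.0569 CPM) set for the 0 in replicate 2, replicate 1 stood 62.5-fold and replicate 3 51.0-fold higher. The floor allows for counting error in replicate 2 alone, so these ratios are no bound on the difference between the tissues. Its relative Pax9, also of the sclerotome, had 7.84, 5.73 and 5.73 CPM and did not show such a gap. Myf5, the first myogenic factor, was near the minimum with 0.708, 0.417 and 0.570 CPM.

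Neural tube genes were likewise mostly highest in replicate 1, for 13 of 16 included members, against 33.5% of all genes. Of the 16, 9 were 1.5-fold apart (56.25%, against 17.9% of all genes). The most abundant, Msx1 (32.1 CPM per kb; 95.2, 86.8 and 116 CPM), Cdh2 (24.7; 191, 191 and 216 CPM) and Irx3 (23.0; 72.3, 58.1 and 60.4 CPM), are also made in mesoderm or other tissues. Genes of the patterned neural tube were lower per kb and differed unequally. Pax6, a progenitor factor of the spinal cord, had 20.01, 10.2 and 9.67 CPM. Zic1 of the dorsal neural tube had 112, 34 and 13 counts, which is 2.14, 0.645 and 0.309 CPM. Zic2, its relative, stayed close at 43.6, 43.1 and 39.3 CPM, and Pax7 of the dorsal tube ran the other way with 0.995, 1.29 and 2.16 CPM. Ventrally, Olig2 of the motor neuron progenitors had 7.48, 3.55 and 2.78 CPM, and 7 of the 8 included ventral genes were highest in replicate 1. Ntn1, the secreted guidance cue of the floor plate, led that list with 140, 91.0 and 108 CPM. Foxa2 of floor plate, notochord and gut stayed close, with 8.59, 7.72 and 7.98 CPM. Of 6 included neural crest genes, 3 were highest in replicate 1 and 3 in replicate 2. Foxd3, an early crest factor, had 4.72, 1.57 and 0.903 CPM, and Sox10 of migrating crest was below the minimum with 71, 19 and 9 counts. Snai2, which is also made in mesoderm, had 24.0, 30.7 and 27.2 CPM, and Tfap2a had 14.1, 16.0 and 13.6 CPM. Of 16 neuron genes with a value, 10 were included. Neurog1, a factor of new neurons, had 42, 14 and 1 counts, Neurod1 had 4, 4 and 0, and Tubb3 had 13.1, 10.8 and 10.5 CPM. The highest of the list were Isl1, which is also made in mesoderm, with 45.4, 41.7 and 43.9 CPM, and Gap43 with 32.5, 33.2 and 26.8 CPM. How far somite, neural tube, progenitor and posterior Hox levels share a source was not tested.

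**Figure D4:**
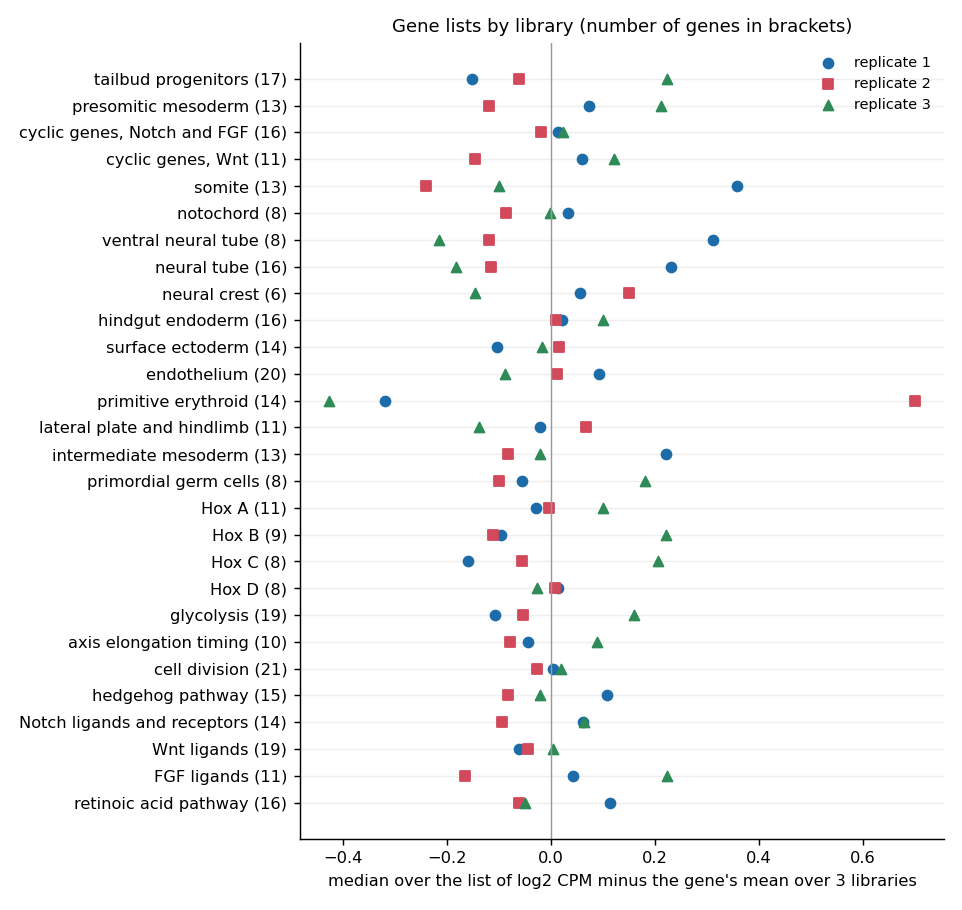
Median over the genes of each list of the log2 CPM in a library minus the gene's mean log2 CPM over the 3 libraries (horizontal axis), for 28 lists, with 1 point per library. Replicate 1 lies highest for somite (0.36) and ventral neural tube (0.31), replicate 2 for erythroid genes (0.70) and replicate 3 for tailbud progenitors (0.22).

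Other tissues of the tailbud differed between libraries to unequal degrees. The share of genes 1.5-fold apart depends on level, with 33.4% of all genes at 1 to 10 CPM and 3.97% at 10 to 100 CPM. The median CV percentile, which allows for level, gave another order. It was 87.3 for lateral plate and hindlimb, 77.5 for endothelium and 74.6 for intermediate mesoderm. For surface ectoderm it was 73.3, and for hindgut endoderm 62.5. Hindgut endoderm was represented by 16 of 18 genes with a value, led by Cldn6 (65.3, 69.6 and 73.6 CPM), a claudin of embryonic epithelia, Epcam (40.7, 45.1 and 45.9 CPM) and Cldn4 (23.0, 24.4 and 26.7 CPM). Of the 16, 3 were 1.5-fold apart (18.8%, near the 17.9% of all genes). All 20 endothelial genes were included, 1 of them 1.5-fold apart (5.00%), and 14 were highest in replicate 1, against 33.5% of all genes. Cdh5, the cadherin of vessel walls, had 168, 165 and 155 CPM. Cldn5 had 39.3, 29.8 and 28.9 CPM and Sox18 had 29.9, 28.3 and 25.4 CPM. In the lateral plate and hindlimb list all 11 genes were included. Pitx1, a hindlimb determinant, led with 176, 192 and 181 CPM, followed per kb by Hand1 (73.8, 119 and 98.6 CPM) and Hand2 (63.6, 81.2 and 70.5 CPM). Tbx4 of the hindlimb had 111, 105 and 93.5 CPM, whereas Tbx5 of the forelimb had 3.71, 4.65 and 3.18 CPM. The kidney lineage factors Osr1 and Gata3 had 27.0, 24.4 and 29.3 CPM and 21.1, 21.2 and 24.9 CPM, and Ret had 49.6, 52.2 and 49.8 CPM. In that intermediate mesoderm list 4 of 13 genes were 1.5-fold apart (30.8%). Of the surface ectoderm list, all 14 were included, 4 were 1.5-fold apart (28.6%), and the simple epithelial keratins Krt8 (204, 307 and 240 CPM) and Krt18 (128, 177 and 160 CPM) were highest in replicate 2. Krt19 had 46.2, 61.4 and 53.8 CPM.

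Of the 44 lists, the erythroid one differed most between libraries in its summed level. All 14 included erythroid genes were highest in replicate 2, against 33.6% of all genes, and all 14 were 1.5-fold apart, against 17.9%. Highest in replicate 2 and 1.5-fold apart together held for 6.84% of all genes. Their summed level was 4457, 9172 and 3806 CPM, a ratio of 2.41 between highest and lowest. Hba-x, the zeta-like globin of primitive red cells, had 1486, 3022 and 1328 CPM. Hbb-y had 1407, 2832 and 1063 CPM, and Hbb-bh1 had 1170, 2551 and 1049 CPM. They are embryonic beta-like globins, and together these 3 genes made up most of the list's level. The adult globin Hba-a1 had 186, 354 and 152 CPM, and Hbb-bt stayed low at 0.306, 2.26 and 0.404 CPM. Replicate 2 was also highest for genes of the red cell membrane and of its transcription program. Slc4a1, the anion exchanger of the membrane, had 120, 233 and 120 CPM, and Klf1, the factor that activates beta-like globins, had 11.5, 22.5 and 10.3 CPM. Over the 14 genes the ratio of replicate 2 to the mean of the other libraries had a median of 2.07 and ran from 1.70 to 6.36. Between replicates 1 and 3, without replicate 2, none of the 14 was 1.5-fold apart. Vessel genes did not share this order, with 3 of 20 endothelial genes highest in replicate 2, and macrophage genes stayed near 0.

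**Figure D5:**
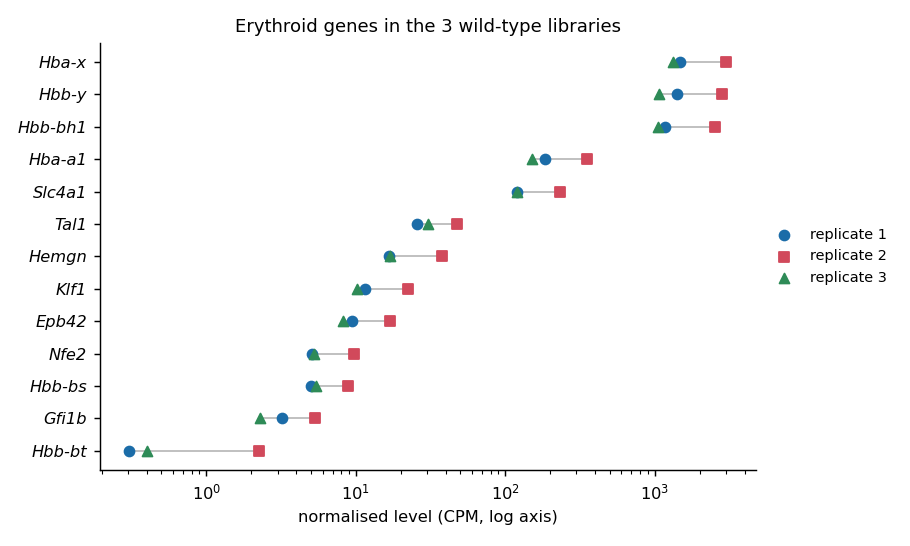
Normalised level (CPM, log axis) of 13 of the 14 included erythroid genes, with 1 point per wild-type library and a line from the lowest to the highest. The square of replicate 2 lies to the right of the other libraries for every gene shown, from Hbb-bt at 2.26 CPM to Hba-x at 3022 CPM.

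The upstream DNA of 3 of these genes is shown because they moved together and because erythroid promoters are known for binding GATA1 and KLF1, which recognise GATA and CACCC motifs. The 250 bases before the RefSeq start site are given in GRCm38.p6, 5′ to 3′ on the gene's strand: Hbb-y at chr7:103853208-103853457 (minus strand), Hba-x at chr11:32276350-32276599 (plus strand) and Klf1 at chr8:84901732-84901981 (plus strand). Capitals mark GATAA and CACCC on either strand (TTATC and GGGTG on the other), and no marked matches overlap.
Hbb-y: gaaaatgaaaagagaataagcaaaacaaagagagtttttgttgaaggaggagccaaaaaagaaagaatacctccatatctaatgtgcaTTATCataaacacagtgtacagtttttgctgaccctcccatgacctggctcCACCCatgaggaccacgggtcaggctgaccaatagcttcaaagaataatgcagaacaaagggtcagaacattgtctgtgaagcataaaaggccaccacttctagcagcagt
Hba-x: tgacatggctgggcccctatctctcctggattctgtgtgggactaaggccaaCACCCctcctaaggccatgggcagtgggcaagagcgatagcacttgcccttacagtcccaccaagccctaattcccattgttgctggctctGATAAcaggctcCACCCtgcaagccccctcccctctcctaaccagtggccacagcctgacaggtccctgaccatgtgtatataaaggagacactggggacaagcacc
Klf1: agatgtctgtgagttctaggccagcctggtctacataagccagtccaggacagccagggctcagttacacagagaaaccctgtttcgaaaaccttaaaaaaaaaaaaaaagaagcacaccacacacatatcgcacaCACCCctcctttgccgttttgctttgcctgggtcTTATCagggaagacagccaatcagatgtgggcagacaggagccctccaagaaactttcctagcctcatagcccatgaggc
Each of the 3 windows held 1 GATAA match, between 162 and 76 bases before the start site, and at least 1 CACCC match. Of the 10 included erythroid genes with an entry in the table, all 10 had a GATAA match and 8 had both motifs in one window. Over the 32817 windows of the table, 22.6% had GATAA, 52.0% had CACCC and 10.1% had both. A gene with several start sites was counted when any of its windows held the letters, so counts of genes and shares of windows are not alike. Both the genes and the motifs were chosen with the levels known, so the counts are a description. A match is not a binding site. The Gata1 gene itself lies on X and has no value here, and Tal1, its partner in blood formation, had 25.5, 47.6 and 30.6 CPM.

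Genes induced by handling or stress were mostly highest in the same library. Of 12 included immediate early and heat shock genes, 8 were highest in replicate 2, against 33.6% of all genes. Only 4 of the 12 were 1.5-fold apart (33.3%, against 17.9% of all genes). Some of the 8 differed little, such as Dnajb1 with 114, 121 and 110 CPM. Hspa1b and Hspa1a, the inducible Hsp70 genes, are near-identical copies and their split is uncertain. They had 5.03, 11.6 and 2.52 CPM and 1.80, 5.48 and 0.665 CPM. Fos had 0.516, 1.33 and 0.404 CPM. The abundant chaperone gene Hspa8 had 2667, 2566 and 2416 CPM and did not share the order, nor did Ier2 with 77.8, 69.2 and 77.1 CPM. Hsp90aa1 had 1602, 1839 and 1742 CPM. The part of handling in the erythroid values was not tested.

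Glycolytic genes, which are known to be high in the growing tail end, were abundant and mostly highest in replicate 3. All 19 genes with a value were included at a median of 103 CPM per kb (167 with the longest transcript in place of the exon union). Of the 19, 16 were highest in replicate 3, against 32.9% of all genes. Their summed level was 15895, 16268 and 19076 CPM. Pkm, which encodes pyruvate kinase, had 4030, 3863 and 4654 CPM. Ldha, which turns pyruvate into lactate, had 2352, 2526 and 3035 CPM, and Aldoa had 1342, 1406 and 1696 CPM. The lactate exporter Slc16a3 had 269, 296 and 391 CPM, whereas Ldhb, the isoform tied to oxidative tissue, had 77.3, 67.2 and 54.4 CPM. The differences were small in fold, since 1 of the 19 genes, Pfkp, was 1.5-fold apart (5.26%).

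Genes tied to the timing of axis elongation were also mostly highest in replicate 3. Of 10 such genes, 9 were highest in replicate 3, against 32.9% of all genes. The differences were small in fold, since none of the 10 was 1.5-fold apart and their summed level had a highest-to-lowest ratio of 1.12. Lin28a, an RNA-binding protein that keeps the tailbud growing, had 497, 530 and 648 CPM, and its relative Lin28b had 122, 110 and 123 CPM. Hmga2 led per kb (152) with 980, 1047 and 1059 CPM, and Igf2bp2 had 448, 462 and 479 CPM. Nr6a1, a nuclear receptor of trunk development, had 84.8, 86.7 and 112 CPM. Gdf11, the signal of the trunk-to-tail transition, was the exception with 90.4, 73.0 and 85.3 CPM. Pluripotency genes were mostly at the bottom of the range. Pou5f1 (Oct4), which persists in the early progenitor zone and in germ cells, had 1.36, 1.27 and 3.33 CPM, and Nanog had 0.344, 0.455 and 0.784 CPM. In the germ cell list, Dppa3 had 0.421, 0.322 and 0.784 CPM, while Ifitm3, Kit and Prdm1, none of them restricted to germ cells, led with 23.0, 9.0 and 2.42 CPM per kb. Pou5f1 and Dppa3 were both highest in replicate 3, but Dppa3 rested on 22, 17 and 33 counts. Of the 8 included genes of the germ cell list, 5 were highest in replicate 3 and 2, Prdm1 and Ifitm3, in replicate 1. The remaining 1, Nanos3, was highest in replicate 2 with 0.956, 1.10 and 0.855 CPM.

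Cell division genes were abundant. All 21 were included at a median of 66.7 CPM per kb, with 19 above the median level per kb of all genes. Their median CV was 4.56% (median CV percentile 60.5). Of the 21, 19 were spread beyond counting noise, but 18 stood at 100 CPM or more. At 100 to 1000 CPM 85.2% of all genes were so spread, so the count is near the share for that level. Only 1 of the 21 was 1.5-fold apart (4.76%, against 17.9% of all genes). Mcm3, a subunit of the replicative helicase, had 483, 452 and 465 CPM, Pcna had 292, 267 and 285 CPM, and Mcm7 had 532, 469 and 501 CPM. Cdkn2a, a brake on the cycle, had 0.325, 0.303 and 0.523 CPM and was the gene that was 1.5-fold apart. It rested on 17, 16 and 22 counts, and 64.9% of all genes below 1 CPM were 1.5-fold apart. Imprinted genes were abundant as well, and the 17 with an identifier summed to 1.95% of the scaled counts, against 1.71% for the glycolytic list. Much of that sum came from H19 and Igf2, with means of 6366 and 3869 CPM. After H19 and Igf2, Mest had 1949, 2049 and 1994 CPM.

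Matrix genes were abundant, and 24 of 25 lay above the median level per kb. Fn1, the fibronectin of the mesoderm matrix, had 1565, 1489 and 1900 CPM, Vim had 522, 529 and 481 CPM, and Itgb1 had 352, 413 and 373 CPM. Among the fibrillar collagens, 3 of the 4 listed differed most and were lowest in replicate 3. Col1a1 had 545, 742 and 380 CPM, Col1a2 had 244, 326 and 194 CPM, and Col3a1 had 464, 464 and 170 CPM. The fibrillar Col2a1 of notochord and cartilage had 165, 153 and 149 CPM, and the basement membrane collagen Col4a1 had 597, 554 and 533 CPM. Col1a1, Col1a2 and Col3a1 were the members of the list that were 1.5-fold apart (12%). Summed over all 44 collagen chain identifiers, 35 of them included, the level was 3791, 3944 and 2823 CPM.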

How the data were processed

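RNA-seq counts of 3 wild-type tailbud libraries were used. The deposited values are raw counts per Ensembl gene identifier, 1 table per library. The submitters' processing notes name STAR 2.5.2b and build mm9, and also SAMtools, CASAVA, DESeq2 and bcl2fastq 2.17.1.14. Neither the labels nor the tables say which program counted the reads, on which annotation or with what strand setting. Overlapping antisense genes therefore cannot be told apart, and near-identical copies are uncertain. Names, exon lengths and chromosomes came from GENCODE M21 (429 included identifiers had no name and 0.630% of counts lay in unnamed ones), and upstream sequences from RefSeq on GRCm38.p6.

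Counts were scaled with edgeR 4.0.16 (TMM factors 1.01, 0.999 and 0.994). CPM per kb used the union of exons. Spread beyond counting noise was tested by a chi-square with 2 degrees of freedom and Benjamini-Hochberg adjustment, and the biological coefficient of variation came from edgeR's dispersion. Alternatives were DESeq2 1.42.0 size factors, plain totals, other minimums, transcript length and leaving out each library. The members and the 44 gene lists were chosen with earlier results of these data known. The named genes are the 6 marks, the 3 highest per kb of each list, the most abundant genes and the 10 most and 10 least variable ones of at least 5 CPM; other list genes were given values after these were seen. A few genes are not reported here.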

Additional observations from a re-analysis of the deposited data

How the results depend on the processing

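The number of included genes was 15551 with a minimum of 5 counts, 13671 with 20 counts, 12437 with 1 CPM, and 14798 to 14997 when a library was left out. Genes spread beyond counting noise numbered 9257 with DESeq2 size factors and 9268 with plain totals. With 2 libraries they numbered 6087 to 6582, and genes 1.5-fold apart 1439 to 1657, the lowest counts being without replicate 2 for the first and without replicate 3 for the second, as 2 libraries span a smaller range than 3. The biological coefficient of variation was 12.9% with edgeR, 9.43% with DESeq2 dispersions, 12.2% with a minimum of 20 counts, and 12.7% to 13.5% leaving out a library; the cause of the first difference was not tested. The 6 marks kept their levels within 1 SD under every setting run for them. Of 44 list medians per kb, 20 moved by more than the spread between libraries when the longest transcript replaced the exon union, and none with DESeq2 size factors. Library order of the erythroid, somite, neural tube, ventral neural, endothelial and progenitor lists, scaled in the ways added after seeing the data, gave the same counts, and 14 rather than 16 glycolytic genes were highest in replicate 3 with plain totals. No paired analysis was possible because a single group was described. With 3 libraries of 1 genotype, n limits every statement, and genes below 1 CPM (1762 of them) had a median CV of 26.8%.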

Other observations

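Some of the widest spreads belonged to processed pseudogenes. Among named genes of at least 5 CPM, 5 of the 10 with the highest CV for their level were of this kind. Rpsa-ps10 had 8.11, 288 and 9.29 CPM in replicates 1, 2 and 3, Rpl17-ps5 had 18.3, 0.228 and 0.285 CPM, and Gm6969 had 14.4, 0.493 and 0.261 CPM. Gm14150 had 32.0, 0.607 and 23.5 CPM, and Gm8730 had 92.9, 90.4 and 4.99 CPM. Each of them was set apart by 1 library. This was replicate 1 for Rpl17-ps5 and Gm6969, replicate 2 for Rpsa-ps10 and Gm14150, and replicate 3 for Gm8730. Their reads can be shared with near-identical copies, so these values are uncertain.

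The other 5 were protein-coding. Sdk1, a cell adhesion gene, had 3.60, 5.10 and 22.1 CPM. Tgfb2, a TGF-beta ligand, had 21.2, 64.4 and 20.1 CPM, and Kdelc2 had 66.6, 25.4 and 23.3 CPM. Postn, which encodes the matrix protein periostin, had 185, 287 and 81.9 CPM, with the same order of libraries as Col1a1. Pklr, the pyruvate kinase of liver and red cells, had 24.1, 50.4 and 19 CPM, the order seen for Hbb-y. At the other end, Cyb5r3 had 187 CPM in each library. Gm23935, a miRNA gene of 57 bases, ranked among the 20 most abundant per kb at 1672, with 118, 116 and 51.9 CPM. A short gene of this kind can collect reads of longer transcripts, so that value is uncertain.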
